A study of Drosophila melanogaster with 36 samples.

Results

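The nuclear genes of the oxidative phosphorylation machinery were followed in heads of Drosophila melanogaster, as 73 of the 11982 genes that the arrays represented. A gene was a member if its platform symbol began with ND-, Sdh, UQCR- or ATPsyn, or with COX followed by a digit. Where a gene had several probe sets, the one with the highest mean over all arrays stood for it. The 73 genes comprised 32 of complex I, 7 of complex II, 6 of complex III, 14 of complex IV and 14 of complex V. SdhA, which encodes the flavoprotein subunit of complex II, was not among them. All 73 symbols were also RefSeq gene symbols. The members included 51 subunits, 21 paralogs (related copies of a subunit gene, most marked by an L in the symbol) and 1 assembly factor, Sdhaf3.

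RNA was measured on 36 one-colour Affymetrix arrays, with 3 arrays for each of 4 genotypes at 0, 2 and 14 days of ageing at 29 °C. Flies of the Atro line expressed a wild-type transgene of Atro, and flies of the A66QC and A75QN lines expressed an Atro transgene with an expanded polyglutamine (polyQ) stretch. Control flies carried the driver GMR-Gal4 and the repressor Gal80 without an Atro transgene. In every transgenic line the transgene was under the same driver and a temperature-sensitive Gal80, which kept it off during development at 18 °C. Flies were taken within 48 h of eclosion, so day 0 is a young adult at the shift to 29 °C, and the shift in temperature and ageing began together in every genotype. GMR-Gal4 acts in the eye, while each RNA sample came from 20 whole heads and therefore held brain, fat body and muscle as well. In such a sample, fewer cells of a type and less RNA per cell cannot be told apart. The labels do not say whether the 3 samples of a group came from separate cultures, so the p-values speak only of the spread among these samples.

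Oxidative phosphorylation is the last stage of respiration in the inner mitochondrial membrane. Complex I (NADH dehydrogenase) and complex II (succinate dehydrogenase) pass electrons to ubiquinone, complex III passes them on to cytochrome c and complex IV (cytochrome c oxidase) gives them to oxygen. Complex V (ATP synthase) makes ATP from the proton gradient that complexes I, III and IV build. Photoreceptors, neurons and muscle all depend on it heavily, and its nuclear subunits are known to be expressed at high levels in such tissues.

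Some measures differed between arrays apart from the members. Array medians were nearly equal on the deposited log2 scale, while the SD over the probe sets of an array was 1.45 to 1.67. On 6 arrays the SD was at least 5% off the group's median, namely replicate 1 of Control at day 0, replicate 2 of Control at days 2 and 14, replicate 2 of Atro at day 2, replicate 2 of A66QC at day 0 and replicate 3 of A66QC at day 2. Means of the 24 polyadenylated spike-in probe sets were 13.16 to 13.40 in A75QN samples from days 2 and 14 (6 arrays), against 10.17 to 10.83 on the other 30 arrays. For the GAPDH control, the 3′ probe sets exceeded the 5′ ones by 2.48 to 3.00 at day 0, by 3.11 to 3.62 at day 2 and by 2.87 to 3.52 at day 14. All 12 measured photoreceptor markers lay above the highest array median, as did 15 of 16 neuron markers and 17 of 19 muscle markers. The heads thus carried markers of all 3 tissues. The lists held 20, 18 and 24 genes, and the others, among them ninaE, norpA, Rh3 and Mhc, had no probe set of that symbol alone. How the members' levels moved with these measures within groups is given with the array medians below, and their part in the single results was not tested.

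The members divided into 49 bright genes, with means over all arrays of 9.53 to 12.80, and 24 dim genes, with means of 5.70 to 7.40. No member lay between these ranges, and the division was made at that gap after the values were seen. The dimmest bright member stood at the 91.4th percentile of all probe sets, whereas only 5 of the 24 dim members lay above the highest array median. The bright members were 25 genes of complex I, 3 of complex II, 3 of complex III, 8 of complex IV and 10 of complex V. Of the 21 paralogs, 20 were dim. The exception was COX7AL2, a paralog of the complex IV subunit COX7A, with a mean of 10.43. The other 4 dim genes were the complex I subunits ND-B12 (mean 7.01) and ND-B8 (5.72), the complex III subunit UQCR-11 (6.46) and the complex II assembly factor Sdhaf3 (7.40).

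**Figure D1:**
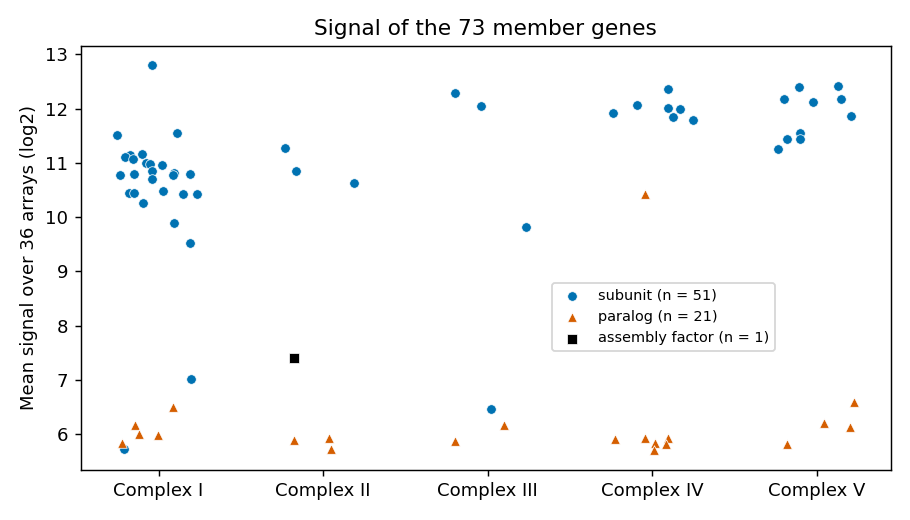
Mean deposited log2 signal over 36 arrays for each of the 73 genes, by complex, with subunits, paralogs and the assembly factor marked separately. The 49 bright genes sit at 9.53 to 12.80 and the 24 dim genes at 5.70 to 7.40, with no gene between.

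The highest mean signal in each complex belonged to ND-MLRQ (12.80) in complex I, SdhC (11.28) in complex II, UQCR-6.4 (12.28) in complex III, COX7B (12.37) in complex IV and ATPsynF (12.42) in complex V. Probe sets differ in affinity, so these signals do not rank the transcripts. The mammalian counterpart of ND-MLRQ, NDUFA4, has been reassigned to complex IV, and the gene is kept in complex I by its symbol. Of the 73 probe sets, 11 carry the suffix _s, which marks probes that may match transcripts of several genes, and COX7AL2 is among them. Several probe sets were available for 6 members.

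Most bright members fell over the 14 days in every genotype. At day 14 against day 0, 45 of the 73 members were lower in Atro heads, 47 in A66QC heads, 48 in A75QN heads and 45 in Control heads (limma, Benjamini-Hochberg adjusted p under 0.05 over all probe sets). Of all 18769 probe sets tested, 13.4% were called lower in Atro, 11.7% in A66QC, 12.0% in A75QN and 12.1% in Control. Higher calls numbered 2, 1, 2 and 2 members in the same order, where 16.1%, 15.4%, 19.3% and 19.3% of all probe sets were called higher. The comparisons of day 14 with day 0 were added after the data had been seen.

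Among the 49 bright members, 43 were lower in Atro, 44 in A66QC, 46 in A75QN and 43 in Control. Of the 1606 probe sets at least as bright as the dimmest of them, 27.2% were called lower in Atro, 27.6% in A66QC, 27.6% in A75QN and 21.7% in Control. The members' median log2 change was -0.37 in Atro, -0.42 in A66QC, -0.58 in A75QN and -0.40 in Control. The median over those 1606 probe sets was 0.014, -0.0013, 0.041 and 0.12 in that order. The same 43 bright members were called lower in all 4 genotypes. On single arrays, the median signal of the bright members was 11.12 to 11.49 at day 0, 11.04 to 11.30 at day 2 and 10.78 to 11.16 at day 14. The highest of the day 14 arrays, at 11.16, was replicate 2 of Control, the array with the largest SD of all 36, at 1.67. The other day 14 arrays of Control stood at 10.87 and 11.05.

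Within groups, the median of the bright members moved with the spread of the array. Over the 36 arrays, its deviation from the group mean correlated with that of the array SD at Pearson's r = 0.88 (permutation p 2e-05) and Spearman's rho = 0.91 (permutation p 1e-05, the smallest that 100000 permutations within groups can give). Without the 2 arrays farthest from the middle in SD, r was 0.86. Of 5 measures set against the median in this way, the array median gave r = -0.70 and rho = -0.70, the muscle markers' median gave 0.64 and 0.66, the spike-in mean gave 0.52 and 0.48, and the GAPDH 3′ to 5′ difference gave 0.35 and 0.27. Their adjusted permutation p-values for r over the 5 were 0.0001 for the SD, 0.000917 for the array median and for muscle, 0.0236 for the spike-ins and 0.133 for GAPDH, and those for rho were 5e-05, 0.00105, 0.00105, 0.0291 and 0.226. Without the 2 farthest arrays r was -0.75 for the array median, 0.66 for muscle, 0.44 for the spike-ins and 0.34 for GAPDH. All of these measures come from the same arrays. Array medians were nearly equal and the bright members lay far above them. Whether other probe sets this bright move with the array SD in the same way was not tested. The correlation was not computed for them, so it is no result particular to the members. What part of a group difference in the bright median goes with array spread was not tested beyond the other scalings given with each result.

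**Figure D2:**
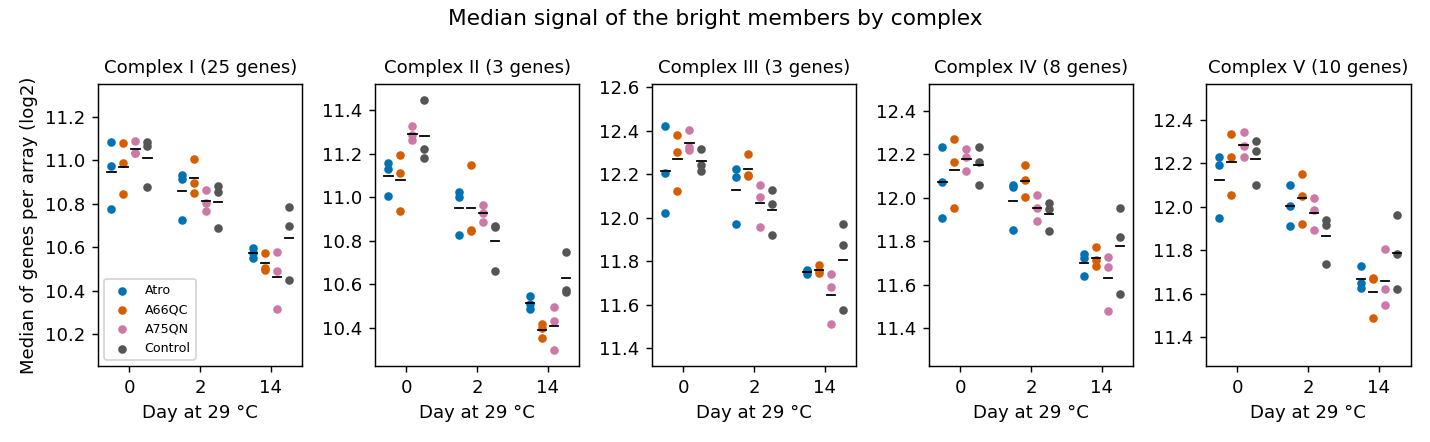
Median log2 signal of the bright members of each complex on every array (points), for 4 genotypes at days 0, 2 and 14, with the group mean as a bar. Over all bright members the arrays run from 11.12 to 11.49 at day 0 and from 10.78 to 11.16 at day 14, and the decline appears in every complex.

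By complex, the median change of the bright members of complex I at day 14 against day 0 was -0.36 in Atro, -0.39 in A66QC, -0.49 in A75QN and -0.37 in Control. In complex II it was -0.59, -0.62, -0.66 and -0.66 in that order of genotypes. Complex III gave -0.36, -0.42, -0.56 and -0.40, and complex IV gave -0.37, -0.41, -0.57 and -0.35. Complex V gave -0.53, -0.48, -0.70 and -0.50. All 3 bright members of complex II, all 3 of complex III and all 10 of complex V were lower in every genotype. The medians of complexes II and III rest on 3 genes each, and no test between complexes was made.

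**Figure D3:**
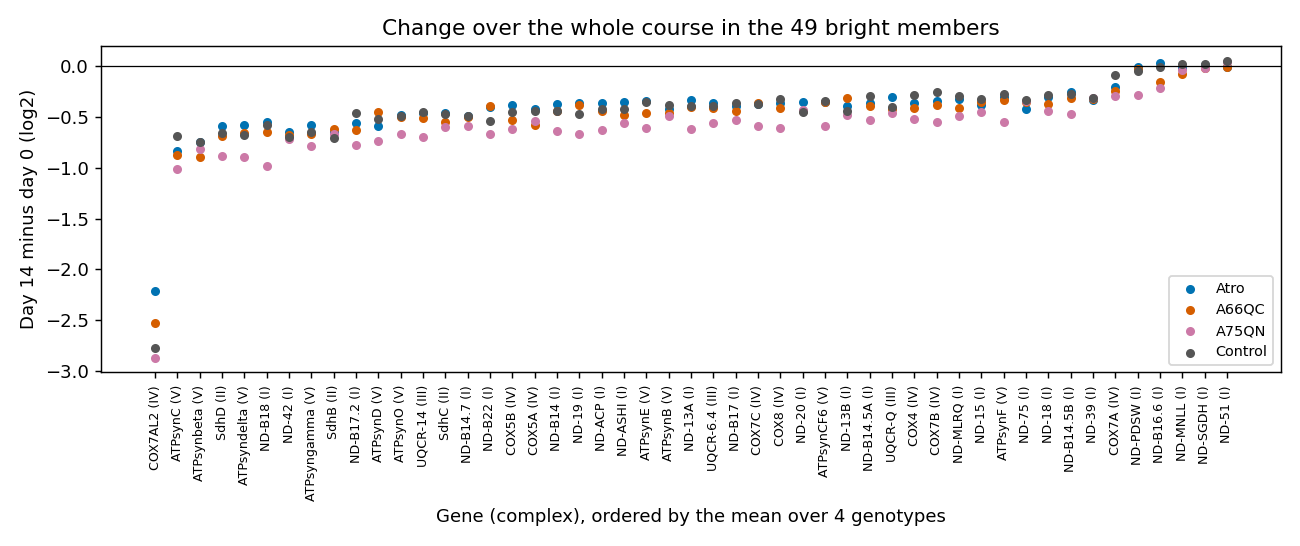
Log2 change at day 14 against day 0 for each of the 49 bright members, ordered by the mean over genotypes, with 1 point per genotype. COX7AL2 lies far below all others at -2.22 to -2.87, and ND-51, ND-SGDH and ND-MNLL lie near zero.

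Complex V held several of the steepest declines. ATPsynC, the subunit of the rotor ring that turns as protons pass, had signals of 11.79, 11.86 and 11.98 in Atro heads at day 14, against 12.79, 12.51 and 12.84 at day 0. In A66QC heads it had 11.79, 11.82 and 11.96 at day 14, against 12.82, 12.56 and 12.81 at day 0. In A75QN heads it had 11.92, 11.84 and 11.96 at day 14, against 12.97, 12.83 and 12.94 at day 0. The days did not overlap in any of the 3 transgenic lines. Control heads gave 12.15, 12.35 and 11.96 at day 14, against 12.68, 12.98 and 12.86 at day 0, again without overlap. The log2 change was -0.84 in Atro, -0.87 in A66QC, -1.01 in A75QN and -0.69 in Control (SE 0.091 each), with adjusted p of 3.7e-07 or less in limma.

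ATPsynbeta, which carries the catalytic sites, changed by -0.74 in Atro, -0.90 in A66QC, -0.81 in A75QN and -0.75 in Control. The central stalk subunits couple the rotor to the catalytic head, and the bright members among them, ATPsyndelta and ATPsyngamma, were lower. ATPsyndelta changed by -0.58, -0.66, -0.89 and -0.67 in the same order of genotypes. ATPsyngamma changed by -0.57, -0.67, -0.78 and -0.64. The peripheral stalk, which holds the head still, was lower as well, with ATPsynD at -0.58, -0.45, -0.74 and -0.52 and ATPsynO at -0.48, -0.50, -0.66 and -0.49. ATPsynB (-0.42, -0.46, -0.49 and -0.38) and ATPsynCF6 (-0.35, -0.35, -0.59 and -0.34) belong to the same stalk and were also called lower in all 4 genotypes.

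Complex II is the only member of the chain that is also an enzyme of the citric acid cycle. Its iron-sulfur subunit SdhB had signals of 10.39, 10.41 and 10.39 in Atro heads at day 14, against 11.05, 10.99 and 11.09 at day 0. In A66QC heads it had 10.24, 10.29 and 10.31 at day 14, against 10.91, 10.80 and 10.97 at day 0. In A75QN heads the day 14 signals were 10.36, 10.18 and 10.26, against 10.97, 10.86 and 10.96 at day 0. No day 14 array reached the lowest day 0 array of its line. Control heads had 10.40, 10.48 and 10.23 at day 14, against 11.04, 11.19 and 11.01 at day 0. The log2 changes were close in all 4 genotypes, at -0.65 in Atro, -0.62 in A66QC, -0.66 in A75QN and -0.71 in Control (SE 0.071 each). The membrane anchors moved in the same direction, SdhD by -0.59, -0.69, -0.88 and -0.66 and SdhC by -0.46, -0.55, -0.60 and -0.47 in Atro, A66QC, A75QN and Control.

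In complex I, 20 of 25 bright members were lower in Atro, 20 in A66QC, 22 in A75QN and 20 in Control. The accessory subunit ND-42 showed nearly the same decline in every genotype, at -0.65 in Atro, -0.68 in A66QC, -0.71 in A75QN and -0.70 in Control (SE 0.083 each). ND-B18, another accessory subunit, changed by -0.55, -0.65, -0.98 and -0.58, and ND-B17.2 by -0.56, -0.62, -0.77 and -0.46. Among the iron-sulfur subunits that carry electrons, ND-75 changed by -0.42, -0.35, -0.34 and -0.33. ND-20, which holds the last cluster before ubiquinone, changed by -0.35, -0.44, -0.43 and -0.45. ND-ACP, the mitochondrial acyl carrier protein, changed by -0.36, -0.44, -0.63 and -0.42.

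Of the bright members of complex I, 5 were not lower in every genotype. ND-51, ND-SGDH and ND-MNLL were called in no genotype, and ND-PDSW and ND-B16.6 were called lower in A75QN alone. ND-51 is the subunit that binds NADH and the flavin where electrons enter the complex. It had 11.47, 11.47 and 11.54 in Atro heads at day 14, against 11.51, 11.38 and 11.60 at day 0. Control heads gave 11.59, 11.76 and 11.46 at day 14, against 11.46, 11.61 and 11.57 at day 0, and the days overlapped in both genotypes. Its log2 change was -0.0052 in Atro, -0.011 in A66QC, 0.037 in A75QN and 0.054 in Control (SE 0.084 each). The accessory subunits ND-SGDH and ND-MNLL changed by 0.016 and -0.014 in Atro, by -0.020 and -0.074 in A66QC, by -0.016 and -0.034 in A75QN and by 0.019 and 0.026 in Control. ND-PDSW, an accessory subunit of the membrane arm, changed by -0.29 in A75QN (adjusted p 0.0133) and by -0.0024 in Atro, -0.031 in A66QC and -0.042 in Control. ND-B16.6 changed by -0.22 in A75QN (adjusted p 0.0425), against 0.031 in Atro, -0.16 in A66QC and -0.0044 in Control. The calls of ND-PDSW and ND-B16.6 in A75QN alone do not show a difference between genotypes, and their differences from Control in that change were not called.

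In complex III, the small subunit UQCR-Q had 9.66, 9.59 and 9.58 in Atro heads at day 14, against 9.93, 9.78 and 10.04 at day 0. Control heads had 9.63, 9.77 and 9.45 at day 14, against 9.97, 10.03 and 10.04 at day 0. The days did not overlap in either genotype. UQCR-Q changed by -0.30 in Atro, -0.42 in A66QC, -0.46 in A75QN and -0.40 in Control. UQCR-14, an accessory subunit, changed by -0.47, -0.51, -0.70 and -0.45 in that order, and UQCR-6.4 by -0.36, -0.41, -0.56 and -0.39.

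The largest decline of any member was that of COX7AL2 in complex IV. In Atro heads it had 11.51, 11.19 and 11.68 at day 0, 11.18, 10.71 and 11.00 at day 2, and 9.29, 9.18 and 9.25 at day 14. In A66QC heads the signals were 11.64, 11.33 and 11.43 at day 0, 10.85, 10.76 and 11.05 at day 2, and 9.04, 8.88 and 8.89 at day 14. In A75QN heads they were 11.80, 11.66 and 11.64 at day 0, 10.77, 10.63 and 10.65 at day 2, and 8.89, 8.69 and 8.91 at day 14. The 3 days did not overlap in any transgenic line. Control heads had 11.47, 11.82 and 11.71 at day 0, 10.43, 10.29 and 10.50 at day 2, and 8.92, 9.03 and 8.72 at day 14, also without overlap between days. The log2 change at day 14 against day 0 was -2.22 in Atro, -2.53 in A66QC, -2.87 in A75QN and -2.78 in Control (SE 0.11 each). On the linear scale these are changes of -78.5% in Atro, -82.7% in A66QC, -86.3% in A75QN and -85.4% in Control.

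COX7A, the subunit that COX7AL2 resembles, changed far less. It had 11.95, 11.86 and 11.97 in Atro heads at day 14, against 12.12, 11.98 and 12.30 at day 0. In A75QN heads it had 11.95, 11.80 and 11.90 at day 14, against 12.21, 12.14 and 12.19 at day 0. Control heads had 12.10, 12.33 and 11.99 at day 14, against 12.13, 12.31 and 12.23 at day 0, so the days overlapped in Control and were separate in Atro and A75QN. Its change of -0.24 in A66QC (adjusted p 0.0325) and of -0.29 in A75QN (adjusted p 0.00645) passed the limma test, and those of -0.20 in Atro (0.0687) and -0.086 in Control (0.505) did not. The other bright members of complex IV were lower in all 4 genotypes, among them COX5A (-0.42, -0.58, -0.54 and -0.44), COX5B (-0.38, -0.52, -0.62 and -0.45) and COX7B (-0.35, -0.38, -0.55 and -0.25 in Atro, A66QC, A75QN and Control).

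**Figure D4:**
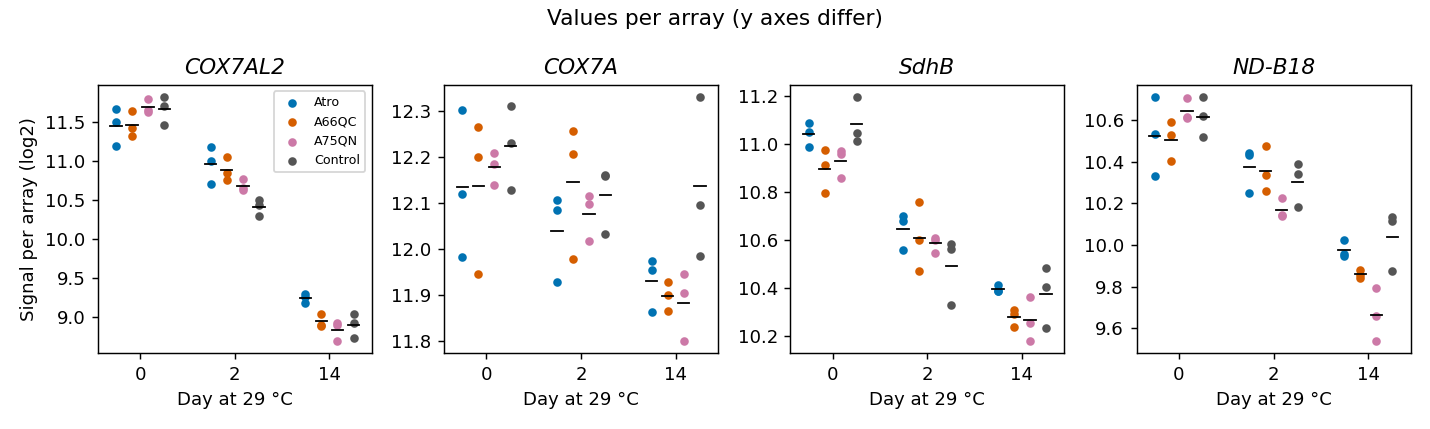
Log2 signal of COX7AL2, COX7A, SdhB and ND-B18 on each of the 36 arrays, by genotype at days 0, 2 and 14. COX7AL2 drops by more than 2 log2 units over the 14 days in every genotype while COX7A changes by less than 0.3, and ND-B18 at day 14 is lowest in A75QN.

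The order of the bright members by size of change was much alike between genotypes. Across the 49 genes, Spearman's rho between the changes of any pair of genotypes was 0.80 to 0.89, given as a description, since genes are not independent replicates and share arrays. Of the probe sets not used to represent the 6 members with several, all bright ones moved in the same direction, but sizes differed. The other probe set of ATPsynbeta changed by -0.38 in Atro, -0.51 in A66QC, -0.43 in A75QN and -0.28 in Control. That of ATPsyngamma changed by -0.90, -0.87, -1.21 and -0.89 in that order. The order of the steepest declines in complex V thus depended on the probe set. The third probe set of COX7B, with a mean of 6.07, and the second of COX7C, with a mean of 6.02, lay near background.

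Of the 24 dim members, 4 were called in each genotype at day 14 against day 0, which is 8.33% in each direction in Atro, A75QN and Control, and 4.17% higher and 12.5% lower in A66QC. Except for the lower calls in A66QC, these shares lie below those of all probe sets in the same direction, so the number of dim members called is no result about them. UQCR-11, a complex III subunit, was higher in all 4, by 0.24 in Atro, 0.18 in A66QC, 0.28 in A75QN and 0.34 in Control. Its signals in Control were 6.66, 6.67 and 6.83 at day 14, against 6.26, 6.41 and 6.48 at day 0, without overlap. COX4L, a paralog of COX4, was higher in Atro (0.18), A75QN (0.20) and Control (0.14). The assembly factor Sdhaf3 was lower in Atro (-0.27), A66QC (-0.30) and A75QN (-0.20), and changed by -0.17 in Control (adjusted p 0.0664). ND-B12 was lower in Atro (-0.15), A66QC (-0.21) and A75QN (-0.15), and changed by -0.060 in Control (0.371). ND-20L was lower in A66QC (-0.14) and Control (-0.13), and ATPsynepsilonL was lower in Control (-0.12).

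Some of these calls were lost when 1 array was left out. In Control, leaving out replicate 3 of day 14 took the calls of COX4, COX7B, COX8, ND-MLRQ and COX4L, and leaving out replicate 2 of day 0 took those of COX4, COX7B, ND-MLRQ and COX4L. COX7B was also lost without replicate 3 of day 0 or replicate 1 of day 14 (adjusted p up to 0.254), and COX4L without replicate 1 of day 14 (up to 0.138). In Atro, leaving out replicate 3 of day 0 took COX7B, ND-MLRQ, UQCR-6.4 and Sdhaf3 past the threshold, to adjusted p of 0.0591, 0.0572, 0.0782 and 0.0663, and leaving out replicate 3 of day 14 took ND-B12 to 0.0909. In A66QC, COX7A kept its call only without replicate 2 of day 0 (otherwise up to 0.197), and UQCR-11 kept it only without replicate 3 of day 0 or replicate 1 of day 14 and lost it without the arrays of outlying spread. In A75QN, leaving out replicate 2 of day 14 took ND-PDSW, ND-B16.6, ND-B12 and Sdhaf3. ND-PDSW was also lost without replicate 1 of day 0, ND-B12 and Sdhaf3 without replicate 2 of day 0, and ND-B16.6 without any of the day 0 arrays (up to 0.223) or under quantile normalization.

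Subunits of the same machinery whose symbols fall outside the rule were measured too. Of 8 such genes, 5 were lower at day 14 than at day 0 in Atro, 5 in A66QC, 6 in A75QN and 5 in Control, and none was called higher. They include RFeSP, the Rieske iron-sulfur protein of complex III, which changed by -0.56, -0.63, -0.66 and -0.58, and blw, the alpha subunit of ATP synthase, which changed by -0.45, -0.47, -0.62 and -0.45 in Atro, A66QC, A75QN and Control. Of 16 listed genes of the citric acid cycle and its feeder enzyme, 10 were measured. Among these, 7 were lower in Atro and 6 in each other genotype, with 1 higher in each. Idh3a, the catalytic subunit of isocitrate dehydrogenase, changed by -0.75 in Atro, -0.98 in A66QC, -0.93 in A75QN and -0.70 in Control.

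Genes that assemble, serve or regulate the chain did not all follow. Of 9 assembly factors and carriers, 3 were lower in Atro and 5 in each other genotype, and 1 was higher in A66QC and 2 in each other genotype. Scox, which delivers copper to complex IV, was higher by 0.38 in Atro, 0.54 in A66QC, 0.40 in A75QN and 0.51 in Control. The outer membrane channel porin was lower, with changes of -0.48, -0.53, -0.56 and -0.45, as was the ADP/ATP carrier sesB, with -0.47, -0.62, -0.54 and -0.43. Of 7 regulators of mitochondrial genes and DNA, 2 were higher and 1 lower in Atro, and 3 were higher in each other genotype. The single-stranded DNA binding protein mtSSB was higher by 0.52 in Atro, 0.46 in A66QC, 0.50 in A75QN and 0.46 in Control. Of 69 genes of the mitochondrial ribosome, 23 were higher in Atro, 13 in A66QC, 17 in A75QN and 22 in Control, and 5, 12, 15 and 8 were lower. Of 31 genes of the vacuolar proton pump, a rotary pump related to ATP synthase that lies outside mitochondria, 9 were lower in Atro, 10 in A66QC, 11 in A75QN and 7 in Control, with 1 higher in Control and none elsewhere.

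Muscle markers fell over the 14 days, as most bright members did. In A66QC the mean array median of the muscle markers was 10.89, 10.24 and 9.80 at days 0, 2 and 14. That of the bright members was 11.27, 11.24 and 10.94. The bright members' median change to day 2 in A66QC was -0.065, and -0.17 without the arrays of outlying spread, so this step depended on single arrays. In A75QN both fell in both steps, with 10.96, 10.41 and 9.70 for muscle and 11.40, 11.15 and 10.90 for the bright members. On single arrays the median of the 19 muscle genes was 10.77 to 11.21 at day 0, 9.89 to 10.63 at day 2 and 9.69 to 10.05 at day 14. At day 14 against day 0, 16 were lower in Atro, 15 in A66QC, 16 in A75QN and 15 in Control, with 1 higher in each and medians of -1.02, -0.76, -1.22 and -0.99. SERCA, the calcium pump of the muscle reticulum and of other cells, changed by -1.97, -2.05, -2.32 and -2.11 in that order. Of 12 photoreceptor markers 4 were lower in Atro, 4 in A66QC, 4 in A75QN and 3 in Control, and 1, 2, 3 and 4 were higher. Of 16 neuron markers 8 were lower in Atro, 5 in A66QC, 7 in A75QN and 6 in Control, with 2 higher in A75QN. Of 7 glial markers 4 were lower in each genotype, and 1, 0, 2 and 2 were higher in Atro, A66QC, A75QN and Control. Of 8 fat body markers 3, 2, 0 and 3 were higher in Atro, A66QC, A75QN and Control, with 1 lower in A75QN. The part of muscle, or of any other tissue, in the decline of the members was not tested.

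The course was also divided at day 2. At day 2 against day 0, 3 members were lower in Atro, 5 in A66QC, 32 in A75QN and 27 in Control, and none was called higher in any genotype. Of all probe sets 9.61% were called lower in Atro, 6.85% in A66QC, 6.92% in A75QN and 11.5% in Control, while 6.12%, 11.2%, 12.8% and 10.6% were called higher. The members' share lay below that background in Atro and at it in A66QC. The bright medians were -0.12 in Atro, -0.065 in A66QC, -0.26 in A75QN and -0.25 in Control. When single arrays were left out they ran from -0.19 to -0.041 in Atro, from -0.13 to 0.0012 in A66QC, from -0.29 to -0.23 in A75QN and from -0.30 to -0.19 in Control. Without the arrays of outlying spread A66QC gave -0.17 and Atro -0.041. At day 14 against day 2, 38 members were lower in Atro, 47 in A66QC, 38 in A75QN and 3 in Control, and 1, 1, 2 and 2 members were higher. The share of all probe sets called lower was 6.83% in Atro, 8.19% in A66QC, 7.56% in A75QN and 3.16% in Control, and the share called higher was 13.1%, 6.93%, 8.55% and 10.3%. The bright medians were -0.28, -0.38, -0.30 and -0.14. Over the 1606 probe sets at least as bright as the dimmest bright member, the medians were 0.075, -0.032, -0.0068 and 0.15. Of these probe sets 16.4%, 23.7%, 19.6% and 4.92% were called lower. The same shares of the bright members were 73.5%, 93.9%, 77.6% and 6.12%, near that background in Control. The Control median of this step became -0.30 under quantile normalization, -0.32 under cyclic loess and -0.27 without the arrays of outlying spread, beside -0.32, -0.35 and -0.35 in Atro, and ran from -0.22 to -0.050 when single arrays were left out.

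This division of the decline between the earlier and the later step depended on how the arrays were scaled. For Control at day 14 against day 2, quantile normalization gave 48 members lower and 3 higher, cyclic loess gave 48 and 3, and dropping the 6 arrays of outlying spread gave 28 and 3. For Atro at day 2 against day 0, quantile normalization gave 10 lower and 5 higher, and cyclic loess gave 12 and 4. For A66QC the same step gave 14 lower and 4 higher under quantile normalization, 24 and 2 under cyclic loess, and 15 and 0 without the arrays of outlying spread. Single arrays mattered too. The 27 members lower in Control at day 2 became 15 calls without replicate 2 of day 2, and the 32 in A75QN became 17 without replicate 1 of day 0 and 19 without replicate 3 of day 2. At day 14 against day 2, the 39 calls in Atro became 19 without replicate 3 of day 2, 23 without replicate 1 of day 2 and 25 without replicate 1 of day 14, and the 40 in A75QN became 16 without replicate 2 of day 14 and 21 without replicate 1 of day 2.

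The change from day 0 to day 2 was compared between each line and Control as a difference of differences. COX7AL2 was the single member called, with a difference of 0.76 in Atro (SE 0.16, adjusted p 0.00725) and of 0.68 in A66QC (adjusted p 0.0246), so that its early decline was smaller in both lines than in Control. In A75QN the difference was 0.25 (adjusted p 0.532) and no member was called by limma, with 2 at an unadjusted p under 0.05. Of all probe sets, 1.35%, 1.32% and 2.04% were called in either direction for Atro, A66QC and A75QN. The single member is 1.37% of the 73, at that background in Atro and A66QC, so the count is no result about the members. These comparisons of the early change were added after the data had been seen. The Atro call held in all 18 alternative fits, which gave 0.63 to 0.89 when single arrays were left out. The A66QC call was lost without the arrays of outlying spread, and without replicate 2 of Control at day 0, replicate 2 of Control at day 2, replicate 2 of A66QC at day 0 or replicate 3 of A66QC at day 2. The differences of the bright members had a median of 0.15 in Atro, where 48 of 49 were positive, and of 0.18 in A66QC, where 49 were. In A75QN the median was 0.0074. All bright probe sets had medians of -0.0014, 0.064 and 0.078, with 807, 551 and 530 of 1606 negative. When single arrays were left out, the medians of the bright members ran from 0.060 to 0.22 in Atro, from 0.13 to 0.25 in A66QC and from -0.050 to 0.053 in A75QN. Without the arrays of outlying spread they were 0.21 in Atro and 0.072 in A66QC, and under cyclic loess 0.10 in A66QC and -0.090 in A75QN. The median for the muscle markers was 0.41 in Atro, 0.43 in A66QC and 0.22 in A75QN, with 5, 4 and 2 of 19 called higher. The 16 neuron markers had medians of 0.14, 0.30 and 0.25, with none negative in any line and 0, 2 and 2 called higher. The 12 photoreceptor markers had medians of 0.068, 0.16 and 0.16, and the 7 glial markers 0.043, 0.22 and 0.17. The part of these tissues in the COX7AL2 difference was not tested.

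Between the lines and Control at day 0, when the transgenes had been repressed, few members differed. For Atro limma called none of the 73, with 1 at an unadjusted p under 0.05, and 4.37% of all probe sets were called. For A66QC it called ATPsynepsilonL, a paralog of the ATP synthase epsilon subunit, at -0.16 (adjusted p 0.0248), with 10.9% of all probe sets. For A75QN it called SdhAL, a paralog of the flavoprotein subunit of complex II, at 0.15 (adjusted p 0.0332), with 7.04% of all probe sets. Both genes are dim, and in every line the members' share lay below that of all probe sets. SdhAL had 5.96, 5.98 and 5.99 in A75QN heads at day 0, against 5.88, 5.82 and 5.78 in Control heads. Its call held only without replicate 1 of Control (adjusted p otherwise up to 0.175). That of ATPsynepsilonL was lost under both other scalings, without the arrays of outlying spread, and without replicate 1 or 3 of Control or replicate 2 or 3 of A66QC (up to 0.121). The low counts of day 0 depended on the scaling. Under quantile and cyclic loess normalization, 14 and 18 members were lower in Atro and 4 and 16 were higher in A75QN. In A66QC 8 and 4 were lower, with 1 higher under each.

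At day 2, COX7AL2 was higher in Atro and A66QC heads than in Control heads. Its signals in Atro heads were 11.18, 10.71 and 11.00 and in A66QC heads 10.85, 10.76 and 11.05, against 10.43, 10.29 and 10.50 in Control heads, without overlap. The log2 difference was 0.55 in Atro (SE 0.11, adjusted p 0.00224) and 0.48 in A66QC (adjusted p 0.00854). The A66QC call was lost without replicate 2 of Control or replicate 3 of A66QC (adjusted p up to 0.0584). The dim paralog UQCR-11L was also higher in Atro, by 0.28 (adjusted p 0.0166), a call lost without replicate 1 of Control or replicate 1 of Atro (up to 0.157). No member was called in A75QN, with 2 at an unadjusted p under 0.05. The share of all probe sets called was 3.63% for Atro, 3.44% for A66QC and 4.68% for A75QN, and in each line the members' share lay below it. Beside these values, the photoreceptor markers had medians of 0.11, 0.15 and 0.12, with 1 of 12 called higher in each line, and 2 of 16 neuron markers were higher in A75QN. The muscle markers had a median difference from Control of 0.32 in Atro, 0.12 in A66QC and 0.26 in A75QN, with 9, 5 and 6 of 19 called higher.

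At day 14, a few members differed from Control in each polyQ line. Limma called 4 of 73 in A66QC, where 17.9% of all probe sets were called, and 5 in A75QN, where 15.6% were called. It called none in Atro, where 4.18% were called and 6 members had an unadjusted p under 0.05. In every line the members' share lay below that of all probe sets, so the counts are no result about the members. These 3 comparisons share the Control arrays of day 14. In A66QC, ATPsynC (-0.30, adjusted p 0.0219), SdhD (-0.24, 0.0352) and COX7A (-0.24, 0.0468) were lower, and the dim paralog ND-51L2 was higher (0.17, 0.0381). In A75QN, ND-B18 (-0.38, adjusted p 0.00164), ND-B17.2 (-0.32, 0.0148), COX7A (-0.25, 0.0390) and ND-B14.5A (-0.22, 0.0416) were lower, and SdhAL was higher (0.16, 0.0109). COX7A was thus lower in both polyQ lines, with 11.87, 11.90 and 11.93 in A66QC heads and 11.95, 11.80 and 11.90 in A75QN heads, against 12.10, 12.33 and 11.99 in Control heads. Neither line overlapped Control. The Atro signals of that day, given above, also lay below every Control array, though COX7A was not called in Atro. Against Atro, COX7A was called in neither polyQ line. For ND-B17.2 and ND-B14.5A the A75QN and Control arrays overlapped. For ATPsynC, the day 14 signals of Atro and A75QN heads, given above, were close to those of A66QC heads. A call in a single line does not show a difference between lines. Under both other scalings the calls of SdhD and ND-51L2 in A66QC and of COX7A, ND-B17.2 and SdhAL in A75QN were lost, and under cyclic loess that of COX7A in A66QC. Each of these, and those of ATPsynC in A66QC and ND-B14.5A in A75QN, was also lost without replicate 2 of Control. Without replicate 1 or 2 of A66QC no A66QC call was left, and without replicate 2 of A75QN only that of ND-B18 was left in A75QN. In A66QC, COX7A and ND-51L2 were lost as well without replicate 1 of Control or replicate 3 of A66QC, and SdhD without the second of these. In A75QN, ND-B17.2 was lost without replicate 1 of Control and COX7A without replicate 3 of A75QN.

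**Figure D5:**
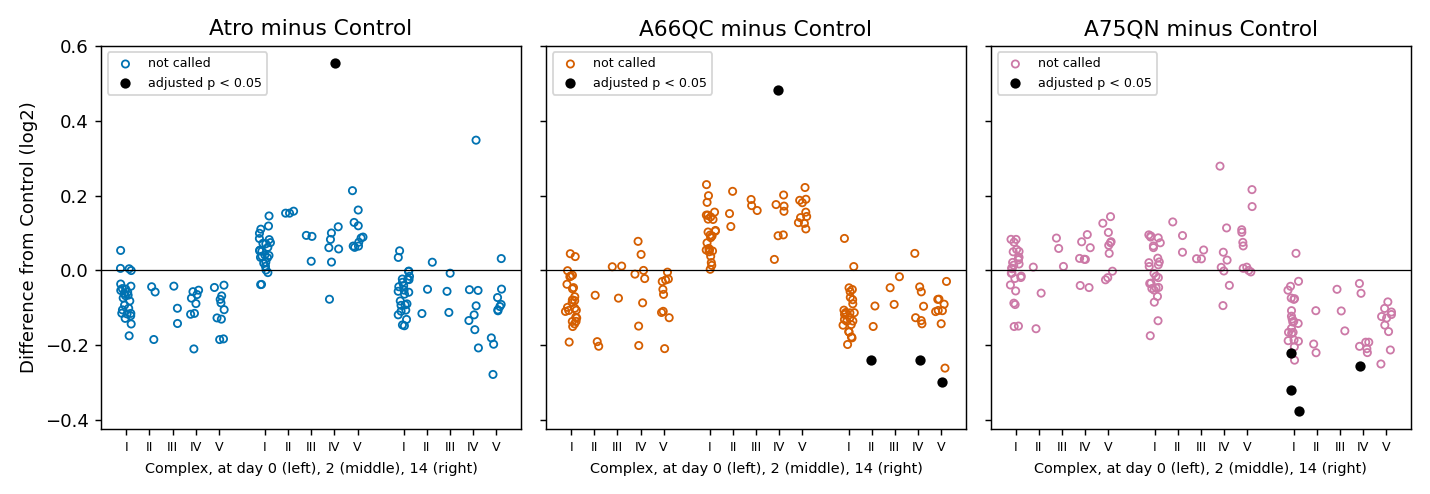
Log2 difference of each bright member between a transgenic line and Control at days 0, 2 and 14, by complex, with filled points for adjusted p under 0.05. COX7AL2 in complex IV stands at 0.55 in Atro and 0.48 in A66QC at day 2, and ND-B18 in complex I at -0.38 in A75QN at day 14, while most members lie near their line's median.

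Of these genes, ND-B18 was examined further. It had 9.79, 9.54 and 9.66 in A75QN heads at day 14, against 10.13, 10.11 and 9.87 in Control heads, without overlap. At day 0 it had 10.71, 10.61 and 10.62 in A75QN heads, against 10.52, 10.71 and 10.62 in Control heads, where the groups overlapped. Its difference at day 14 stayed called in all 12 alternative fits, at -0.46 to -0.20. The difference from Control was -0.18 in A66QC (adjusted p 0.119) and -0.065 in Atro (0.847). Set against Atro at day 14, ND-B18 (-0.31, adjusted p 0.0112) and COX7AL2 (-0.41, 0.0177) were lower in A75QN, and these were the 2 members called, with 9.29% of all probe sets. COX7AL2 had 8.89, 8.69 and 8.91 in A75QN heads, against 9.29, 9.18 and 9.25 in Atro heads. The ND-B18 call was lost without replicate 2 of Atro or replicate 2 of A75QN (adjusted p up to 0.106), and the COX7AL2 call without replicate 1 or 3 of Atro or replicate 2 of A75QN (up to 0.128). In A66QC against Atro no member was called, with 3 at an unadjusted p under 0.05 and 5.86% of all probe sets called. Against Atro, the share of members called thus lay below that of all probe sets in both polyQ lines.

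The change from day 0 to day 14 was compared between each line and Control in the same way as the early one. ND-B18 was the single member called, with a difference of -0.40 in A75QN (SE 0.12, adjusted p 0.0458), where 3.09% of all probe sets were called. This call was lost when the 6 arrays of outlying spread were dropped and in 9 of 12 fits that left out 1 array, with adjusted p of up to 0.153. Only without replicate 2 of Control at day 0, replicate 3 of Control at day 14 or replicate 1 of A75QN at day 14 was it kept. No member was called in Atro or in A66QC, where 2 members each had an unadjusted p under 0.05 and 2.11% and 2.29% of all probe sets were called. The bright members' median difference was -0.17 in A75QN, with 46 of 49 negative, beside -0.075 for all bright probe sets, with 1086 of 1606 negative. In Atro it was 0.0072, with 23 of 49 negative, beside -0.10 for all bright probe sets, with 1233 of 1606 negative. In A66QC it was -0.040, with 37 negative, beside -0.12 for all bright probe sets, with 1257 of 1606 negative. Leaving out single arrays gave -0.28 to -0.090 in A75QN, -0.087 to 0.080 in Atro and -0.14 to 0.028 in A66QC. The A75QN median became -0.02 under quantile normalization, -0.08 under cyclic loess and -0.04 without the arrays of outlying spread, where Atro gave 0.12, 0.13 and 0.13 and A66QC 0.11, 0.10 and 0.018.

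The level of the bright members at day 14 relative to Control also depended on the scaling. The bright median was -0.072 in Atro, -0.11 in A66QC and -0.15 in A75QN, beside -0.077, -0.15 and -0.16 for all bright probe sets. Under quantile normalization it was 0.0049, 0.062 and 0.069, and under cyclic loess 0.015, 0.067 and 0.044, with the sign turned in all 3 lines. The cause of these shifts was not tested. The Control arrays of day 14 include the array of the largest SD. Without it, limma called no member in A66QC and 1 in A75QN. Other arrays moved these counts as well. For A66QC, leaving out replicate 1 or 2 of its day 14 arrays gave 0 calls, replicate 3 gave 1 and replicate 3 of Control gave 8. For A75QN, leaving out replicate 2 of its day 14 arrays gave 1 call, replicate 1 gave 10 and replicate 3 of Control gave 17. Under quantile normalization the calls comprised 5 rises beside 3 falls in A66QC and 7 beside 2 in A75QN, and under cyclic loess 3 beside 2 and 4 beside 2.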

How the data were processed

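The deposited values are log2 signals per probe set, which the authors computed in R 2.11.0 (per the submitters' processing notes). They were used as deposited for 36 arrays. The sources used here do not give the background correction, summarization or normalization. The precision is limited by the number of arrays and by how far a signal lies above background.

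Tests covered 18769 probe sets, leaving out 183 controls of the 18952. Of those tested, 13647 had 1 symbol in the platform annotation, 402 several and 4720 none. The genes ft and w are not analysed here. A single linear model held a mean for each of 12 groups (limma 3.58.1, R 4.3.3, residual df 24, prior df 6.49). Moderated tests of 29 contrasts were adjusted over all probe sets by the Benjamini-Hochberg method, and a call is an adjusted p under 0.05. Of the contrasts, 7, those of day 14 with day 0 and of the early change between lines and Control, were added after seeing the data.

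The members and gene lists were chosen with earlier results of these data known. Named were, in each comparison, the 2 called members of smallest adjusted p per complex, any member called against the majority of its complex, the member of the highest mean per complex and up to 4 genes of each other list. Array values are given for the member of smallest adjusted p per complex. Other members were named after their values were seen, for the roles they hold. Alternatives were quantile and cyclic loess normalization, brighter probe sets alone, the mean of a gene's probe sets, the replicate number as a block, leaving out each array and, added later, leaving out 6 arrays of outlying spread. A planned search of promoter sequences was not run. Plots used matplotlib 3.10.9 and Python 3.11.15.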

Additional observations from a re-analysis of the deposited data

Results flagged for a closer look

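The change of COX7AL2 at day 2 against day 0 differed between Atro and Control by 0.76 on the log2 scale (SE 0.16, adjusted p 0.00725), by a limma test of the difference itself. The signals were 11.18, 10.71 and 11.00 in Atro heads at day 2, against 11.51, 11.19 and 11.68 at day 0, and 10.43, 10.29 and 10.50 in Control heads at day 2, against 11.47, 11.82 and 11.71 at day 0. The same difference between A66QC and Control was 0.68 (adjusted p 0.0246). The change of ND-B18 at day 14 against day 0 differed between A75QN and Control by -0.40 (adjusted p 0.0458). These were the members for which a difference between genotypes in a change over time passed the test, and the last 2 calls were each lost when single arrays were left out. Each call is 1.37% of the 73 members. Of all probe sets, 1.35%, 1.32% and 3.09% were called in the same comparisons, so the counts are no result about the members. The comparisons of the change to day 2 were added after the data had been seen. No explanation of these differences was tested.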

How the results depend on the processing

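The counts of members called at day 14 against day 0 stayed within 46 to 53 under the 6 other settings and 35 to 50 when single arrays were left out, where the main counts were 47 in Atro, 48 in A66QC, 50 in A75QN and 47 in Control. Of 197 named calls, 151 were kept in every fit. Other counts moved by more than 1.5 times. Quantile and cyclic loess normalization gave, at day 2 against day 0, 15 and 16 for Atro (main 3), 18 and 26 for A66QC (5), and under loess 49 for A75QN (32) and 41 for Control (27). At day 14 against day 2 they gave 51 and 51 for Control (5). Against Control at day 0 they gave 14 and 18 for Atro (0), 9 and 5 for A66QC (1), and 4 and 16 for A75QN (1). Against Control at day 2 they gave 4 and 4 for Atro (2), 10 and 5 for A66QC (1), and 7 and 4 for A75QN (0). Against Control at day 14 they gave 3 and 2 for Atro (0), and under quantile normalization 8 for A66QC (4) and 9 for A75QN (5). Against Atro at day 14 they gave 8 and 6 for A75QN (2), and quantile 2 for A66QC (0). For the difference in change from day 0 to day 14 they gave 2 and 3 for Atro (0), 5 and 3 for A66QC (0), and quantile 3 for A75QN (1). For that from day 0 to day 2 they gave 8 and 10 for Atro (1), 11 and 6 for A66QC (1), and 1 and 5 for A75QN (0). Under quantile and loess, Atro at day 0 gave 0 higher and 14 or 18 lower, and A75QN at day 0 gave 4 or 16 higher and 0 lower. For A75QN against Atro at day 14 most calls became higher ones, with 6 higher and 2 lower or 4 and 2, where the main calls were 0 and 2. The cause of these shifts was not tested.

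Without the arrays of outlying spread the counts were 15 for A66QC at day 2 against day 0, 31 for Control at day 14 against day 2, 1 for Atro, 6 for A75QN against Control at day 0, 2 for A66QC at day 2, 1 for Atro and 2 for A66QC at day 14, and 1 for A66QC and 4 for A75QN against Atro. For the differences in change they were 1 for Atro and 0 for A75QN over 14 days, and 2 for Atro and 0 for A66QC over 2 days. Brighter probe sets alone gave 6 for Atro at day 2 against day 0, 0 for A75QN against Control at day 0, 1 for Atro at day 2, and 1 for the 14-day difference in Atro. Deviations of arrays with the same replicate number in different groups correlated at -0.60 to 0.68 (median 0.034). Those with different numbers correlated at -0.73 to 0.71 (median -0.021). Whether the replicate numbers pair the arrays was not tested. The fit with the replicate block gave 5 calls for Atro at day 2 against day 0, 1 for Atro against Control at day 14 and 1 for the 14-day difference in Atro.

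When single arrays were left out, day 2 against day 0 gave 2 to 12 calls in Atro, 2 to 6 in A66QC, 17 to 28 in A75QN and 15 to 33 in Control. Day 14 against day 2 gave 19 to 42 in Atro, 16 to 40 in A75QN and 2 to 8 in Control. Against Control, A66QC gave 0 to 3 and A75QN 0 to 2 at day 0, Atro 1 to 2 and A66QC 0 to 2 at day 2, and Atro 0 to 1, A66QC 0 to 8 and A75QN 1 to 17 at day 14. A75QN against Atro gave 0 to 3. The differences in change gave 0 to 1 for Atro and for A75QN over 14 days, and 1 to 2 for Atro and 0 to 2 for A66QC over 2 days. ND-51, ND-SGDH and ND-MNLL stayed uncalled at day 14 against day 0, except for 1 in A75QN under quantile normalization and 2 in Control under cyclic loess. ND-B18 in A66QC against Control at day 14, not called at -0.18, turned to 0.0084 under quantile and 0.0076 under cyclic loess normalization.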
